A study of Mus musculus with 12 samples.

Results

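The ROSA26 locus lies on mouse chromosome 6 and carries Gt(ROSA)26Sor, a gene of non-coding RNAs expressed in most tissues. The values described here are those of Gt(ROSA)26Sor and of 7 genes around it, namely Lmcd1, Cav3, Rad18, Srgap3, 2310039F13Rik, Thumpd3 and Setd5, which lie in the order just given from lower to higher coordinates except that 2310039F13Rik falls within Srgap3 and Gt(ROSA)26Sor between Thumpd3 and Setd5. The 8 genes were chosen by their position near the locus, with their levels across the 4 groups in view, so differences between genotypes in these genes are given as a description and without a test. They were represented by 19 of the 56556 probes used from the array, that is, by 8 of 37047 gene names. A further 69 probes of 39 other gene names lie in the same stretch of chromosome 6, from 112.2 to 114.0 Mb on mm9, and served as the comparison.

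Total RNA from mouse heart was measured on 12 one-colour microarrays, 3 in each of 4 groups. The groups were wild-type C57/BL6 hearts (WT), wild-type C57/BL6 hearts after myocardial infarction (WT+MI), hearts carrying a transgene for CCRR, a long non-coding RNA (TG), and hearts with that transgene after infarction (TG+MI). The labels give no strain for the transgenic animals, no promoter, copy number or insertion site for the transgene, and no age, sex or time after infarction for any group. They do not say whether the 3 samples of a group are separate animals, so the p-values reflect only how these samples vary, and that variation may be technical.

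ROSA26 is widely used in mouse genetics because a transgene placed there is expressed in most cells and its disruption is tolerated. Its transcripts run on the minus strand, and the neighbouring gene Thumpd3, on the plus strand, overlaps them in the RefSeq annotation of the mouse. Srgap3 encodes a protein of the Slit-Robo pathway, Setd5 a SET-domain chromatin protein, Thumpd3 a tRNA methyltransferase, Rad18 an E3 ubiquitin ligase of post-replication repair, Cav3 the muscle caveolin, and Lmcd1 a LIM-domain cofactor that interacts with GATA transcription factors. The gene 2310039F13Rik is a RIKEN transcript with no function given in the files.

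Levels are log2 of the background-corrected, processed signal of a probe minus the 75th percentile of that array, so a level of 0 is the brightness of that percentile. Levels are compared between arrays for one probe and never between probes. Of the 19 probes, 16 passed the detection filter, which a probe passed where some group had it well above background in each of its 3 arrays, and 10 were well above background on all 12 arrays. The others were 2 Rad18 probes and 1 Srgap3 probe, of which 1 Rad18 probe was well above background on none. The filter lets a probe pass through the group in which it is bright, so counts over the 16 do not describe all 19.

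The arrays lay on 2 slides. All 6 wild-type arrays, infarcted or not, were on slide 1 together with TG 1 and TG 2. TG 3 and the 3 TG+MI arrays were on slide 2. TG+MI and WT+MI therefore share no slide, and slide and genotype cannot be told apart in that comparison except through TG 3. All 7 cardiomyocyte markers were well above background on all 12 arrays, with summed levels from 1229 to 2141 times the 75th percentile. The 4 atrial markers summed to 1.85 to 2.79 in WT, 167 to 742 in TG, 1.28 to 218 in WT+MI (218 on WT+MI 1) and 1.97 to 57.5 in TG+MI. The fibroblast markers summed to 159 to 183 in WT, 210 to 271 in TG, 95.3 to 130 in WT+MI and 129 to 152 in TG+MI, with all 5 detected throughout. Neutrophil and macrophage markers, of which 9 of 10 were on the array, summed to 137 to 150 in WT, 305 to 431 in WT+MI, 120 to 132 in TG and 168 to 185 in TG+MI. The erythroid markers, of which 5 of 6 were on the array, summed to 467 to 770 in WT and 205 to 366 in TG, without overlap, and to 332 to 413 in WT+MI and 267 to 453 in TG+MI. The 5 smooth-muscle markers summed to 63.6 to 73.0 in WT, 69.5 to 118 in TG, 42.2 to 46.7 in WT+MI and 48.6 to 58.2 in TG+MI, the last 2 without overlap. The cardiomyocyte sums were 1635 to 2141 in WT and 1234 to 1526 in TG, also without overlap. In bulk tissue fewer cells of a type and less RNA per cell cannot be told apart, and the part of these differences in the results below was not tested.

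The 3 Gt(ROSA)26Sor probes and 3 probes of cDNA transcripts on which the description turns are shown first, since each of the 3 Gt(ROSA)26Sor probes reads a different stretch of the locus and they disagree. AK076574 and AK042057 are the names that the files give to 2 cDNAs in the same stretch of chromosome 6. Each probe is 60 bases long and is printed 5' to 3' as deposited, in lower case, with every AATAAA in capitals, the canonical hexamer of polyadenylation signals, which 9.771% of all probes of this length hold on the printed strand (the other strand was not searched).
2310039F13Rik (A_65_P12160, chr6:112708497-112708556, minus): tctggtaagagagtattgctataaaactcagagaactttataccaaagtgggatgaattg
Gt(ROSA)26Sor (A_66_P105306, chr6:113017427-113017486, minus): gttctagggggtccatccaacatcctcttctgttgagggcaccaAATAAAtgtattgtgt
Gt(ROSA)26Sor (A_55_P2745677, chr6:113017730-113017789, minus): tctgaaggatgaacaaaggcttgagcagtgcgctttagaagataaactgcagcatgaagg
Gt(ROSA)26Sor (A_55_P2203051, chr6:113020400-113020459, minus): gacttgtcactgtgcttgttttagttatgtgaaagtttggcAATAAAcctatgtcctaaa
AK076574 (A_52_P892292, chr6:113046622-113046680, plus): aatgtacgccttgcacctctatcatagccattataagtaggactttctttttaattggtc
AK042057 (A_65_P10025, chr6:113081842-113081901, plus): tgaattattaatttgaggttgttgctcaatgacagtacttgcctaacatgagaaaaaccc
Coordinates are on mm9 as the files give them. The hexamer starts at base 45 of A_66_P105306 and at base 42 of A_55_P2203051, and a match is no evidence of a site.

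Gt(ROSA)26Sor, read by probe A_55_P2203051, was higher in transgenic than in wild-type hearts, and most of all after infarction. Its levels were 1.56, 1.64 and 1.74 in WT, 2.23, 4.04 and 2.21 in TG, 2.06, 1.87 and 2.09 in WT+MI, and 4.45, 5.0 and 6.10 in TG+MI. TG 2 stood far above TG 1 and TG 3, and the TG+MI arrays lay above every other array. Group means were 1.65 ± 0.09 in WT, 2.83 ± 1.05 in TG, 2.01 ± 0.12 in WT+MI and 5.18 ± 0.84 in TG+MI (SD, n = 3), and in the order WT, WT+MI, TG, TG+MI no neighbouring groups overlapped, although TG and WT+MI differed by less than the SD of TG. TG was 1.18 ± 0.49 above WT (standard error of the fit on all probes), but 0.57 above it without TG 2, so 1 array decides the size. The 2 TG arrays of slide 1 were 1.49 above WT and TG 3, on slide 2, was 0.57 above it. TG+MI was 3.18 ± 0.49 above WT+MI, or 9.04-fold. With slide as a block it was 4.10 above, in a fit whose slide term rests on TG 1 and TG 2 against TG 3. TG 1, on slide 1, read 2.23 and TG 3, on slide 2, read 2.21, so TG 2 at 4.04 moves both the 1.49 and the 4.10.

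The other Gt(ROSA)26Sor probes were dim and differed from the bright one in part. Probe A_66_P105306 ranged from -3.69 to -2.92 in WT, -3.80 to -3.05 in TG, -2.97 to -2.24 in WT+MI and -3.25 to -1.59 in TG+MI, with the 2 genotypes overlapping both before and after infarction. Its TG minus WT difference was -0.12 and its TG+MI minus WT+MI difference 0.19. Probe A_55_P2745677 was well above background on 7 arrays, 1 WT, 3 WT+MI and 3 TG+MI. It read -4.64, -4.01 and -4.38 in WT, -4.66, -4.76 and -4.89 in TG, -3.68, -3.57 and -3.71 in WT+MI and -3.43, -3.06 and -2.20 in TG+MI. As for the bright probe, its TG+MI arrays lay above every other array, by 0.76 in the mean over WT+MI, but its TG arrays, none well above background, lay below all WT arrays. The bright probe lies at higher coordinates than both, and the files assign it to another transcript of the gene.

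**Figure D1:**
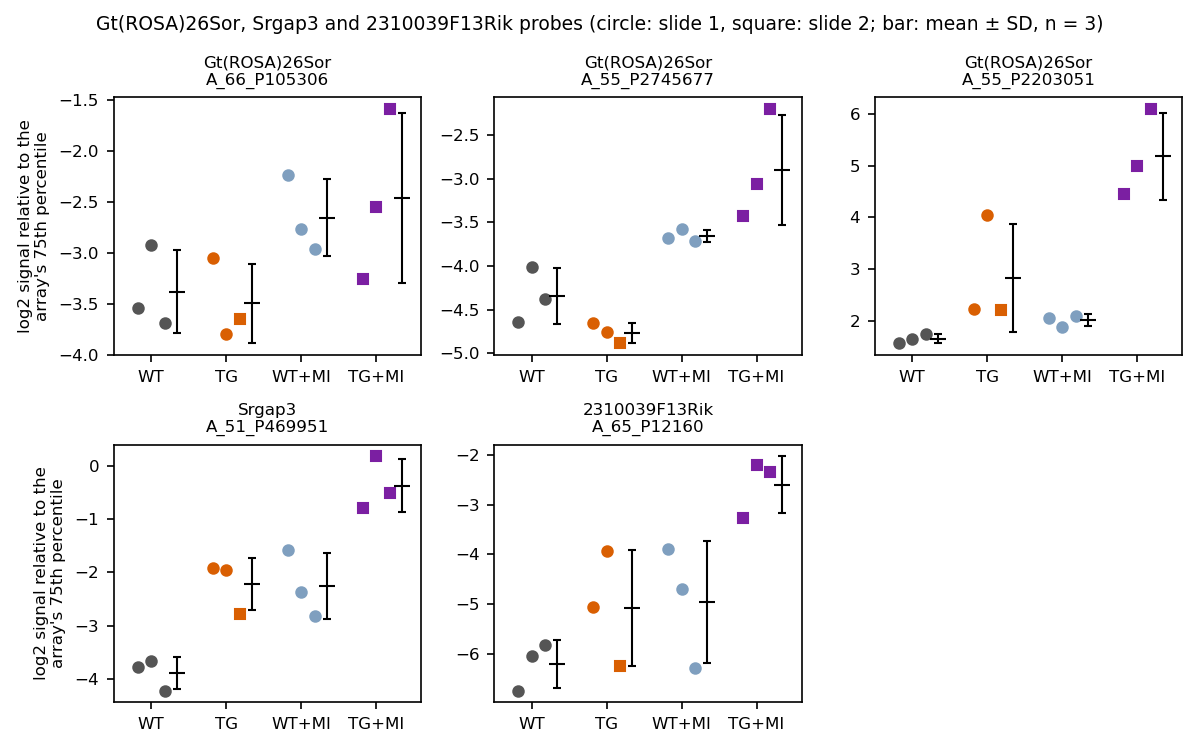
Level of each probe (log2 signal relative to the 75th percentile of the array) on each array by group, for the 3 Gt(ROSA)26Sor probes, Srgap3 probe A_51_P469951 and the 2310039F13Rik probe; circles are arrays of slide 1, squares arrays of slide 2, and the bar is the mean ± SD of 3 arrays. The TG+MI arrays of A_55_P2203051 lie between 4.45 and 6.10, above all others, while A_66_P105306 overlaps between genotypes.

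All 5 Setd5 probes were higher in every TG array than in every WT array, and in every TG+MI array than in every WT+MI array. The brightest, A_52_P448304, stood at 3.09, 3.12 and 3.01 in WT, 3.78, 3.84 and 3.81 in TG, 3.27, 3.27 and 3.11 in WT+MI and 3.85, 3.84 and 4.00 in TG+MI. The groups separated by genotype with little spread, the SD within a group being between 0.03 and 0.09. The TG minus WT difference of this probe was 0.74 ± 0.10, or 1.67-fold, and the TG+MI minus WT+MI difference 0.68 ± 0.10, or 1.61-fold. The second probe of the same mRNA, A_55_P2487974, stood at -0.53, -0.53 and -0.52 in WT and 0.16, 0.28 and 0.34 in TG. It stood at -0.45, -0.40 and -0.57 in WT+MI and 0.22, 0.28 and 0.49 in TG+MI, differences of 0.79 and 0.81. Probes A_52_P135185, A_55_P2833111 and A_55_P2924646, which the files assign to other Setd5 transcripts, differed by 1.16, 0.89 and 0.70 between TG and WT. Probe A_55_P2833111 was not well above background on any WT or WT+MI array, and was well above it on 2 TG and 3 TG+MI arrays. For this probe, TG is at least 1.38-fold above WT and TG+MI at least 1.30-fold above WT+MI. It passed the detection filter only through TG+MI, so the filter favoured TG+MI above WT+MI. On slide 1 alone the 5 TG minus WT differences were between 0.62 and 1.13, and TG 3 alone gave 0.74 to 1.22. Fibroblast and atrial sums were higher, and erythroid, cardiomyocyte and neutrophil and macrophage sums lower, on every TG array than on every WT array, and after infarction the smooth-muscle sums were higher and the neutrophil and macrophage sums lower on every TG+MI array than on every WT+MI array. Their part in the Setd5 values was not tested. Normexp background correction was run with an offset of 50 intensity units, which by itself narrows log2 differences of dim probes. With normexp, the 3 dimmer Setd5 probes differed between TG and WT by 0.52, 0.01 and less than 0.01 in size. The 2 brighter ones differed by 0.66 and 0.89.

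AK042057 and AK076574 were not among the listed genes but lie between and beside the Setd5 probes, on the same strand, and so their genotype differences were tested. AK042057 read -0.23 ± 0.22 in WT, 1.60 ± 0.34 in TG, 0.48 ± 0.07 in WT+MI and 1.28 ± 0.26 in TG+MI (SD, n = 3), with the TG and WT arrays not overlapping and TG+MI above WT+MI. Its level rose in TG against WT by 1.83 ± 0.19 (limma, Benjamini-Hochberg adjusted p = 0.00215), and this call held without any single array. AK076574 rose in TG by 0.78 ± 0.12 (adjusted p = 0.0113 from limma), a call that is lost without WT 1 or without WT 3 (adjusted p = 0.051 in both) and with normexp (0.32, adjusted p = 0.158). After infarction, AK076574 was 0.84 higher (adjusted p = 0.0224) and AK042057 0.80 higher (adjusted p = 0.0372) in TG+MI than in WT+MI by limma, and both calls are lost with slide as a block (adjusted p = 0.658 for both), whereas the TG against WT calls are kept there (0.006 for AK042057 and 0.039 for AK076574, adjusted). Leaving out 1 array in turn, the call after infarction was kept in 4 of 12 fits for AK042057 (adjusted p up to 0.104) and in 10 of 12 for AK076574. Their transcripts may share sequence with Setd5, which the files do not settle. Their calls may therefore not be independent of the choice of Setd5, whose levels were in view.

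**Figure D2:**
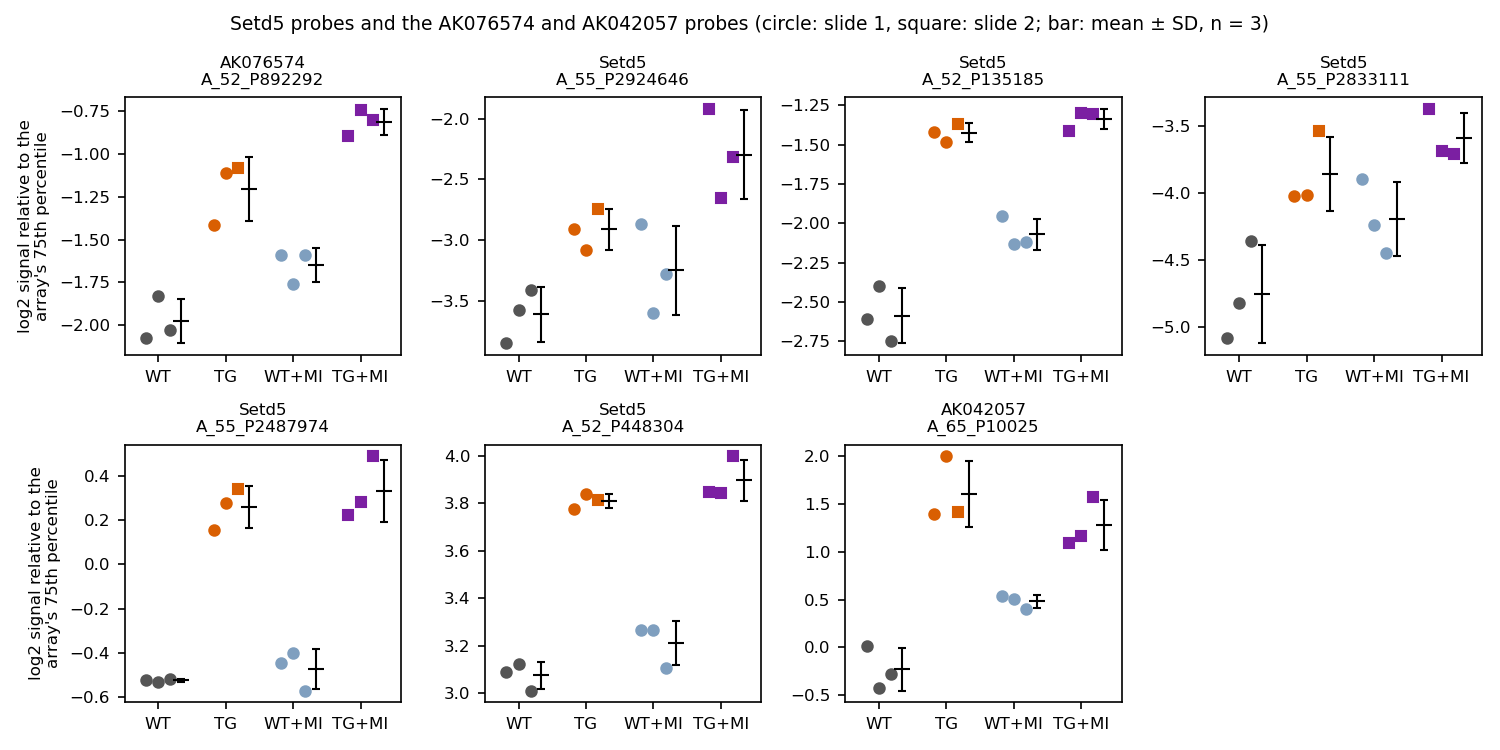
Level of each probe (log2 signal relative to the 75th percentile of the array) on each array by group. Panels show AK076574, then the 5 Setd5 probes in order of position, then AK042057, which lies between Setd5 probes. Circles are arrays of slide 1, squares arrays of slide 2, and the bar is the mean ± SD of 3 arrays. In all 7 panels the 3 TG arrays lie above the 3 WT arrays and the 3 TG+MI arrays above the 3 WT+MI arrays.

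Srgap3 (A_51_P469951) was also higher in transgenic hearts. Its levels were -3.77, -3.66 and -4.22 in WT, -1.93, -1.96 and -2.77 in TG, -1.58, -2.37 and -2.81 in WT+MI and -0.78, 0.18 and -0.51 in TG+MI. TG and WT+MI overlapped, WT lay below both, and TG+MI above both. The genotype difference was 1.67 ± 0.36 before infarction and 1.88 ± 0.36 after it. With normexp the first was 0.40 and the second 1.08, and with slide as a block the second was 2.72. The other Srgap3 probe was well above background on 1 array, a TG+MI array, and was not tested. 2310039F13Rik was well above background on 4 arrays, 3 of them TG+MI and 1 WT+MI, and stood at -3.26, -2.21 and -2.33 in TG+MI against -3.89, -4.69 and -6.30 in WT+MI. No TG or WT array was well above background for this probe, and their readings overlapped.

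Thumpd3, which overlaps Gt(ROSA)26Sor on the opposite strand, was not higher in transgenic hearts before infarction. The TG minus WT differences of its 3 probes were -0.13, -0.22 and -0.16, with overlapping arrays, and the TG+MI minus WT+MI differences were -0.43, 0.20 and -0.31. For the first of these, A_52_P599872, every TG+MI array lay below every WT+MI array. Its levels were -1.07, -0.80 and -1.57 in TG+MI against -0.70, -0.79 and -0.66 in WT+MI. The brightest probe of Thumpd3, A_51_P232142, read 1.89 ± 0.08 in WT and 1.73 ± 0.12 in TG. Rad18, Cav3 and Lmcd1 gave TG minus WT differences of 0.02, 0.11 and -0.04, each with overlapping arrays. The brightest Rad18 probe, A_55_P1975021, read -3.11 ± 0.17 in WT, -3.09 ± 0.20 in TG, -2.28 ± 0.09 in WT+MI and -2.43 ± 0.69 in TG+MI. Cav3 read 5.01 ± 0.08, 5.12 ± 0.17, 5.55 ± 0.26 and 5.60 ± 0.13 in the same groups, so that it followed infarction and not genotype in these arrays. The untested Rad18 probe A_65_P05396 was well above background on 2 WT+MI and 2 TG+MI arrays only. Lmcd1 differed by -1.01 ± 0.41 between TG+MI and WT+MI, with WT+MI 3 at 1.60, below the TG+MI range of 1.70 to 2.06, and WT+MI 1 and 2 at 3.65 and 3.32, above it.

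Of the 16 tested probes of the 8 genes, 7 had all TG arrays above all WT arrays, against 12.1% of all 29870 tested probes, and 9 had all TG+MI arrays above all WT+MI arrays, against 19.6%. The same 7 met both, against 1.76% of all tested probes: the 5 Setd5 probes, Srgap3 A_51_P469951 and Gt(ROSA)26Sor A_55_P2203051. In the other direction, 1 tested probe had all TG arrays below all WT arrays, and 1 had all TG+MI arrays below all WT+MI arrays. The share of all tested probes in that direction was not counted. Setd5 A_55_P2833111 and 2310039F13Rik, both among the 9, passed the detection filter only through TG+MI, so the filter favoured TG+MI above WT+MI for them. Since the genes were chosen with these levels in view, nothing is read from these counts and shares.

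By position, the tested probes that are not of the 8 genes gave an account of what else differed nearby. Of the 46 tested, 2 were higher and 1 lower in TG than in WT by limma, where 1.25% of all tested probes were called higher and 1.24% lower. The 2 higher were AK076574, 28.1 kb from the mean position of the Gt(ROSA)26Sor probes, and AK042057, 63.3 kb from it. The lower one was the Emc3 probe A_55_P2935795, at 459 kb, at -1.11 (adjusted p = 0.00578), where the TG level is not above background and TG is at least 1.60-fold lower. Emc3 encodes a subunit of the endoplasmic reticulum membrane protein complex. No other tested probe from 0.5 to 5 Mb away was called, among 16, 7 and 75 probes in the bins from 0.5 to 1, 1 to 2 and 2 to 5 Mb, while 3 of 336 were called higher and 5 lower between 5 and 20 Mb, 16 of 1043 higher and 9 lower beyond that, and 347 of 28227 higher and 354 lower on other chromosomes. The probe with the highest TG minus WT difference in the stretch, chosen after its value was seen, was Cidec, a lipid-droplet gene of adipocytes and one of the adipocyte markers, at 5.49 ± 1.56 (adjusted p = 0.10, limma), with TG 1 at 3.96 and the other TG arrays at -0.73 and -0.02. The summed adipocyte markers were 269 on TG 1 and 148 and 154 on the other TG arrays.

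After infarction, 6 of the 46 were higher and 3 lower in TG+MI than in WT+MI, against 5.33% and 4.05% of all tested probes. They were 3 Ssu2 probes, AK076574, AK042057 and Brpf1, which encodes a bromodomain subunit of a histone acetyltransferase complex, and, lower, Ogg1, a DNA glycosylase, Arpc4, a subunit of the actin-nucleating Arp2/3 complex, and Ttll3, a tubulin ligase-like enzyme. In the interaction, which compares the infarction difference between genotypes, 3 of the 46 were higher and 2 lower, against 3.74% and 2.36% of all tested probes. With slide as a block limma called none of the 46 in TG+MI against WT+MI. There 7 had an unadjusted p under 0.05, against 2247 of all 29870 tested probes. Without TG+MI 1 or without TG+MI 3, limma also called none of the 46 in this comparison.

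**Figure D3:**
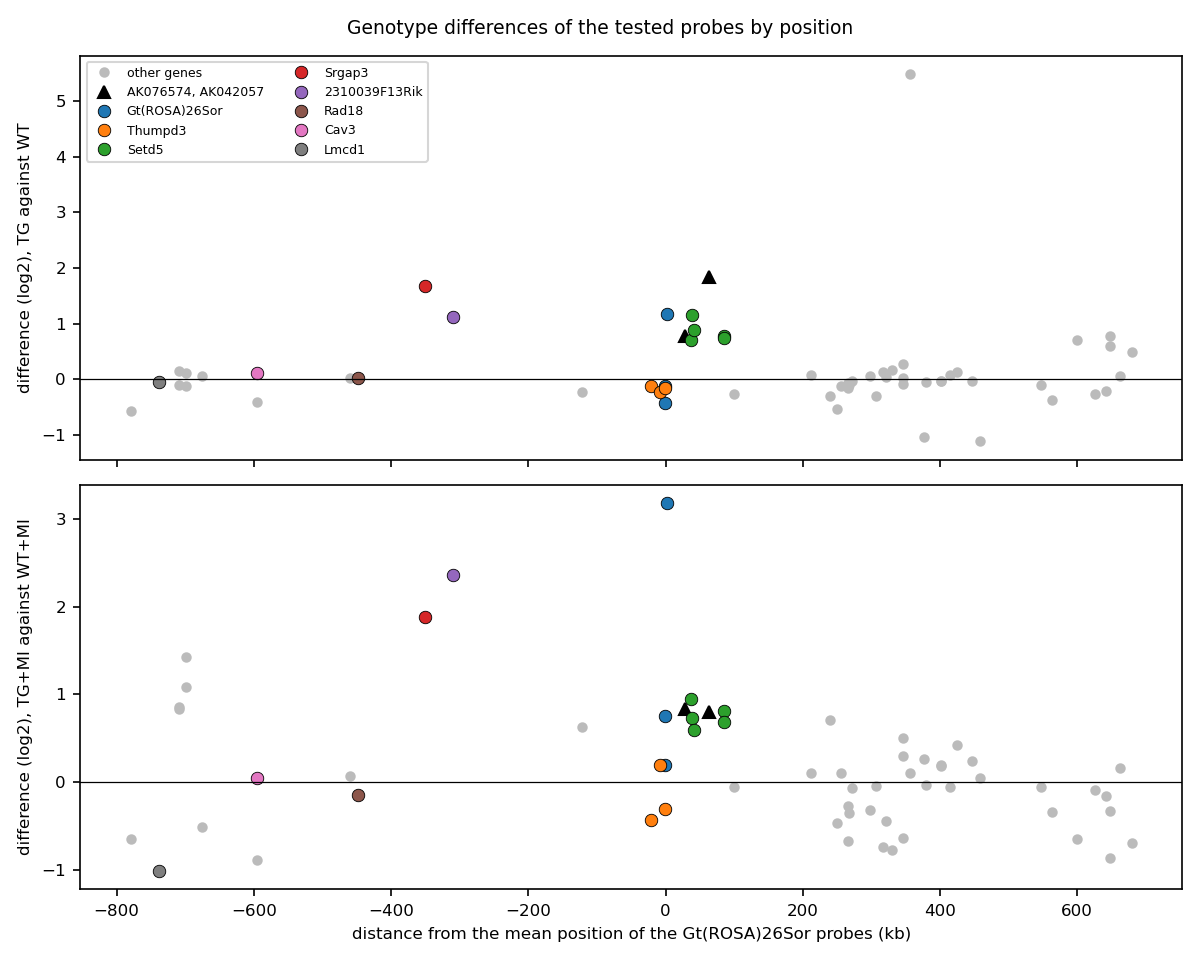
Difference between genotypes (log2) of each tested probe against its distance in kb from the mean position of the Gt(ROSA)26Sor probes, before infarction (top, TG minus WT) and after it (bottom, TG+MI minus WT+MI); coloured points are the listed genes, black triangles AK076574 and AK042057, grey points the other genes. The Setd5 probes, the 2 triangles and Gt(ROSA)26Sor A_55_P2203051 lie above 0.5 in both panels. So do Srgap3 A_51_P469951 and 2310039F13Rik, at -350 and -310 kb. The high grey point in the top panel is Cidec at 5.49.

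Infarction was compared within each genotype, and these comparisons were tested. The 8 genes were chosen with the levels of all 4 groups in view, and the same arrays enter here, so the calls and counts are not evidence independent of that choice. In wild-type hearts 7 of the 16 probes rose and none fell, against 18.8% of all tested probes called higher and 27.5% called lower, and the median difference of the 16 was 0.62, against -0.12 over all tested probes. Lmcd1 rose the most, from 0.46, 0.71 and 0.51 in WT to 3.65, 3.32 and 1.60 in WT+MI, with no overlap (2.30 ± 0.41, limma adjusted p = 0.00162). Cav3 rose by 0.55 (adjusted p = 0.0120), Rad18 A_55_P1975021 by 0.83 (adjusted p = 0.0300) and Srgap3 by 1.63 (adjusted p = 0.00428) in the same limma fit. Thumpd3 probes A_52_P599872 and A_65_P09322 rose by 0.76 (adjusted p = 0.00957) and 0.71 (adjusted p = 0.0218), while the brightest Thumpd3 probe gave 0.22 (adjusted p = 0.355) by limma. Setd5 A_52_P135185 rose by 0.52 (limma adjusted p = 0.00418), and the brightest Setd5 probe gave 0.14 (adjusted p = 0.255). Gt(ROSA)26Sor A_55_P2203051 gave 0.36 ± 0.49 (limma adjusted p = 0.568), with all 3 WT+MI arrays above all 3 WT arrays. The Rad18 call is lost without WT 2, WT 3 or any 1 of the 3 WT+MI arrays (adjusted p from 0.052 to 0.092), and the second Thumpd3 call without WT 1, WT 3 or WT+MI 1. With normexp 3 of the 7 calls were kept, Lmcd1, Cav3 and Thumpd3 A_52_P599872, and without scaling 2, Lmcd1 and Srgap3.

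In transgenic hearts 5 of the 16 probes were called higher and none lower after infarction, against 4.97% and 3.35% of all tested probes, and nothing is read from that count. One of the 5, the 2310039F13Rik probe, passed the detection filter only through TG+MI, the group in which it is high. The median difference of the 16 was 0.64, against 0.04 over all tested probes. Gt(ROSA)26Sor A_55_P2203051 rose by 2.35 ± 0.49 (limma adjusted p = 0.0176), a call lost without TG 1, TG 3 or TG+MI 2. Its dim probe A_55_P2745677 rose by 1.87 ± 0.27 (limma adjusted p = 0.00345), at least 2.30-fold. That call was kept in every one of the 12 fits without 1 array. However, the probe was well above background on no TG array. It passed the detection filter only through WT+MI and TG+MI, so the filter favoured that direction. Srgap3 rose by 1.85 (limma adjusted p = 0.0131) and is not called without TG+MI 2 (adjusted p = 0.055). 2310039F13Rik, with no TG array above background, was at least 2.82-fold higher in TG+MI (limma adjusted p = 0.0438, lost in 9 of 12 such fits), and the filter had fixed that direction. Thumpd3 A_65_P09322 rose by 1.13 (limma adjusted p = 0.0134). The other Thumpd3 probes, well above background on all 12 arrays, were not called by limma. The brightest, A_51_P232142, gave 0.08 (adjusted p = 0.829) and A_52_P599872 gave 0.45 (adjusted p = 0.175). None of the 16 was called with slide as a block, where limma rests on TG 3 alone for this comparison. There 5 of the 16 had an unadjusted p under 0.05, against 3735 of all 29870 tested probes. Lmcd1 gave 1.33 (adjusted p = 0.0725), Cav3 0.48 (adjusted p = 0.0692) and Rad18 0.66 (adjusted p = 0.164) by limma, and all 5 Setd5 probes stayed short of the threshold. Whether the infarction differences of the 8 genes differ between genotypes was not tested, as these genes were chosen across the 4 groups. For Gt(ROSA)26Sor A_55_P2203051 the infarction difference was 2.0 ± 0.69 larger in transgenic hearts.

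**Figure D4:**
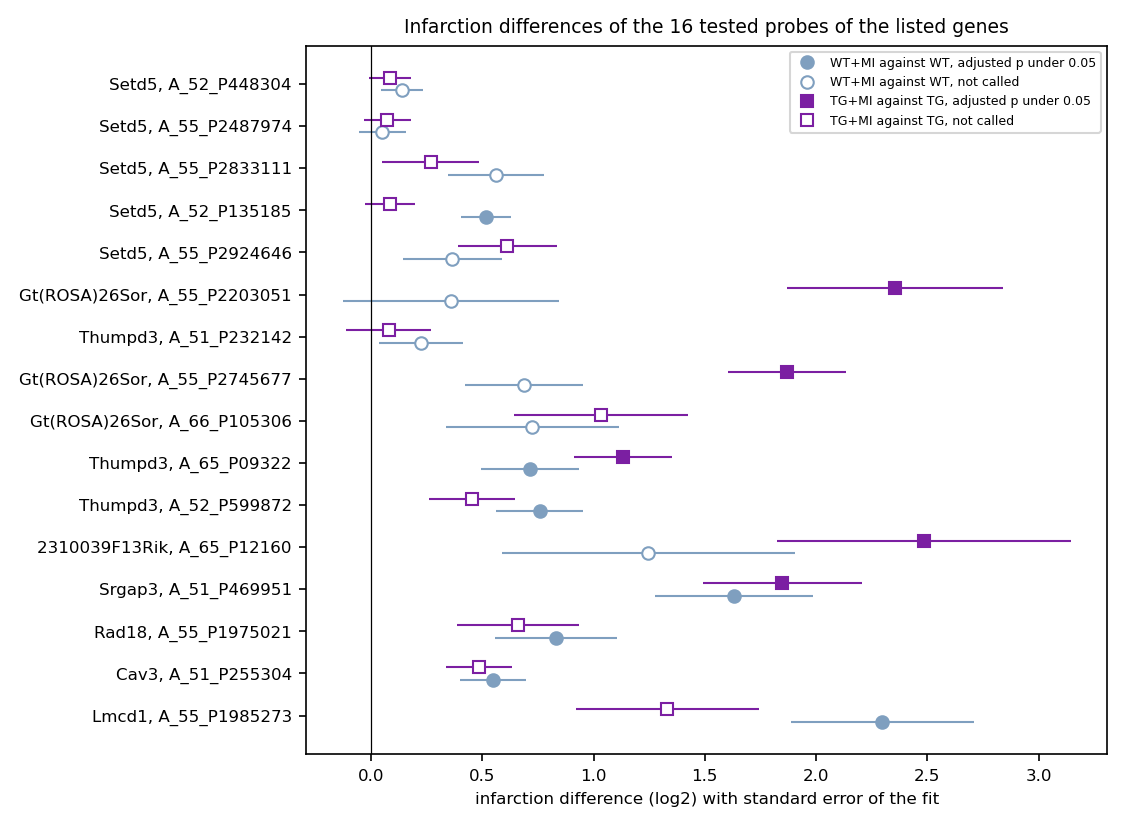
Infarction difference (log2) of the 16 tested probes, with the standard error of the fit, in wild-type (circles) and transgenic (squares) hearts; filled points have an adjusted p under 0.05. All points lie above 0, and Lmcd1 is the highest circle at 2.30.

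**Figure D5:**
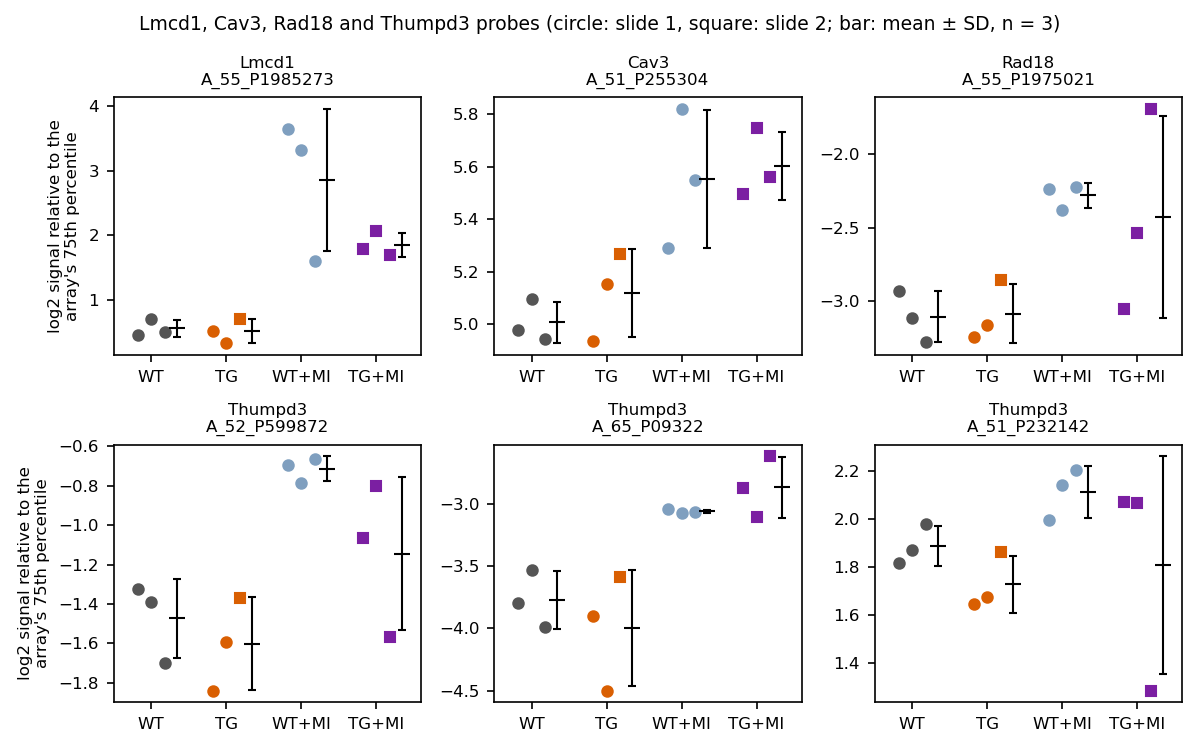
Level of each probe (log2 signal relative to the 75th percentile of the array) on each array by group, for Lmcd1, Cav3, Rad18 A_55_P1975021 and the 3 Thumpd3 probes; circles are arrays of slide 1, squares arrays of slide 2, and the bar is the mean ± SD of 3 arrays. WT and TG arrays overlap in every panel, and WT+MI 3 lies below the other WT+MI arrays for Lmcd1.

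The genes whose profile over the 12 arrays lay nearest that of Gt(ROSA)26Sor A_55_P2203051, by the mean absolute difference of centred levels among 19783 genes, were 2310039F13Rik (0.60), Srgap3 (0.64), Gm694 (0.68), 8430426J06Rik (0.73) and Gareml (0.78). For Setd5 they were 4833420D23Rik (0.13), AK076574, Gm30289, Klk10 and Mst1r, and for Srgap3 they were 2310039F13Rik, Gm694, Ddit4, Fkbp5 and Olfr6. 2310039F13Rik and Srgap3 are listed genes chosen with these levels in view, and the former was well above background on 4 of the 12 arrays, so their rank is a description only.

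Genes related by function to the members were counted with 1 probe a gene. In TG against WT, none of the partner genes of Cav3 (14 measured), Rad18 (16), Srgap3 (11), Setd5 (14) or Thumpd3 (14), nor of the 20 calcineurin and GATA genes, was called by limma, where 1.34% of all genes were called higher and 1.15% lower. At an unadjusted p under 0.05 these lists had 3, 1, 2, 1, 0 and 5 genes in the order given. At the same threshold 5370 of all 29870 tested probes passed. Among the 21 LIM-domain genes of muscle, Csrp2, a smooth-muscle LIM protein, was higher by 1.58 (limma adjusted p = 0.0152). After infarction in wild-type hearts, 5 of 14 caveola genes were higher and 4 lower, 6 of 21 LIM genes higher and 7 lower, and 2 of 20 calcineurin and GATA genes higher and 8 lower, against 18.2% and 29.1% of all genes. Fhl1, a LIM protein of muscle, rose by 2.37 (limma adjusted p = 0.0001), Rcan1, a calcineurin regulator, by 1.63 (limma adjusted p = 0.0006), and Sdpr, a cavin, fell by 1.18 (limma adjusted p = 0.0002). Of the tRNA methylation genes around Thumpd3, 7 of 14 were higher and 2 lower, with Trmt61a at 1.70 (limma adjusted p = 0.0003). Of the genes around Rad18, 2 of 16 were higher and 4 lower, of those around Srgap3 2 of 11 higher and 0 lower, and of those around Setd5 3 of 14 higher and 2 lower. After infarction in transgenic hearts, by the same test and against 4.78% of all genes higher and 3.6% lower, 2 of 14 caveola genes were higher and 0 lower, 3 of 21 LIM genes higher and 1 lower, 1 of 20 calcineurin and GATA genes higher and 1 lower, 2 of 14 tRNA methylation genes higher and 0 lower, 1 of 14 genes around Setd5 higher and 0 lower, and 0 of 11 around Srgap3 higher and 1 lower. None of the 16 around Rad18 was called, and 4 had an unadjusted p under 0.05, against 7551 of all 29870 tested probes. In TG+MI against WT+MI, against 5.4% and 4.25% of all genes, each list had at most 2 genes called higher and at most 1 lower. The Srgap3 and Setd5 lists had none. At an unadjusted p under 0.05 they had 2 and 1 genes, against 9450 of all 29870 tested probes.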

How the data were processed

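Deposited scanner files gave the background-corrected, dye-processed intensity of each spot (Agilent Feature Extraction 12.0.3.1, build mm9, per the file headers). The authors' deposited table of log2 values, of unstated scaling (limma is named in the submitters' processing notes, without a version), was used only as an alternative: its columns had medians of 4.21 to 4.22 and rank-correlated best with their own array, its centring being unknown. Outlier spots were left out (49 of 56605 probes had no other spot), log2 intensity was reduced by the 75th percentile of the non-control spots of the array, rather than of probes after averaging, and spots of a probe were averaged. The 75th percentile ranged from 198 to 374 intensity units, no spot was saturated, and 47.0% to 55.2% of probes were well above background. The number of arrays, 3 a group, limits the precision. A group-means model of all 12 arrays was fitted to 29870 probes with limma 3.58.1 in R 4.3.3, with Benjamini-Hochberg adjustment over all of them and a threshold of 0.05, and tested on simulated data. Where a probe was below background in a group, the fold is given as a bound. The listed genes, gene lists and tests were chosen with earlier results of these data known. Named genes were all members, window genes called in a genotype comparison, the 5 nearest profiles and at most 4 called genes a list. Alternatives covered background, scaling, filter, probe choice, slide, replicate number and each array left out. Replicate numbers did not pair the samples: same-numbered arrays correlated at -0.26 to 0.12 in 18 pairs.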

Additional observations from a re-analysis of the deposited data

Results flagged for a closer look

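The infarction difference differed between genotypes, by the interaction term of the limma fit, for 5 probes of the stretch outside the 8 listed genes. For AK042057, inside Setd5, it was -1.04 (0.71 in wild-type and -0.32 in transgenic hearts, adjusted p = 0.0493). For Ssu2 A_52_P62489 it was 1.21 (-1.63 and -0.42, adjusted p = 0.0456), for Brpf1 A_66_P140028 1.01 (-0.91 and 0.10, adjusted p = 0.0345), for Emc3 A_55_P2935795 1.16 (-0.55 and 0.61, adjusted p = 0.0245), and for Ttll3 A_55_P2069425 -0.91 (0.80 and -0.12, adjusted p = 0.0455). The AK042057 call was kept in 1 of 12 fits that left out 1 array (adjusted p up to 0.106), and none of the 5 was called without WT 1, without WT 2, without TG 2 or without TG+MI 1. The Emc3 probe was well above background on no TG array and on 1 WT+MI array, so its differences rest on readings near background. It passed the detection filter through WT and TG+MI, which enter the interaction with a plus sign, so the filter favoured that direction. The interaction called 6.1% of all tested probes. With slide as a block limma called none of the 46 tested probes of the stretch. There 11 had an unadjusted p under 0.05, against 4618 of all 29870 tested probes.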

How the results depend on the processing

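Reversal of direction was scored only for the infarction tests of the brightest probe of each listed gene. None of those called reversed under the alternatives run. The counts below are of 16 tested probes of the listed genes, 46 of the stretch and 29870 in all, unless the setting changes the probes tested. With 1 probe per gene, 8 of the listed genes and 30 of the stretch were tested. On probes detected on all 12 arrays, 10 of the listed genes were tested. Without the filter, 69 of the stretch and 56556 in all were tested. The probes of the listed genes called in WT+MI against WT were 7, and 3 with normexp, 2 without scaling and 4 with 1 probe per gene (5 to 9 leaving out 1 array). In TG+MI against TG they were 5, and 3 with normexp, 1 on probes detected on all 12 arrays, 3 with 1 probe per gene and 0 with slide as a block (2 to 7 leaving out 1 array, 2 without TG+MI 2). The other probes of the stretch called in WT+MI against WT were 19, and 12 without scaling and 10 with 1 probe per gene (16 to 21 leaving out 1). In TG+MI against TG they were 4, and 2 without scaling, 1 without the filter, 2 with 1 probe per gene, 0 with slide as a block and 2 with the replicate block (0 to 5 leaving out 1, 0 without TG 1, TG 3 or TG+MI 2). In TG against WT they were 3, and 1 with normexp (2 to 3 leaving out 1). In TG+MI against WT+MI they were 9, and 0 without the filter, 5 with 1 probe per gene and 0 with slide as a block (0 to 12 leaving out 1). In the interaction they were 5, and 1 with normexp, 1 without scaling, 0 without the filter, 3 with 1 probe per gene, 0 with slide as a block and 3 with the replicate block (0 to 6 leaving out 1, 0 without WT 1, WT 2, TG 2 or TG+MI 1). Setd5 A_52_P448304 in TG minus WT was 0.89 with normexp and 1.15 without scaling (0.70 to 0.76 leaving out 1), and in TG+MI minus WT+MI 0.79 and 0.91 (0.63 to 0.71). Without scaling, the median of all probes shifted to 0.35 in TG against WT. Srgap3 in TG minus WT was 0.40 with normexp (1.5 to 1.95 leaving out 1), and in TG+MI minus WT+MI 1.08 with normexp and 2.72 with slide as a block (1.61 to 2.22). Gt(ROSA)26Sor A_55_P2203051 was 0.57 to 1.49 leaving out 1 in TG minus WT, and in TG+MI minus WT+MI 4.10 with slide as a block (2.72 to 3.54). The 4.10 is moved by TG 2. Over all tested probes, the calls in WT+MI against WT were 13829, and 6565 without scaling (10476 to 15248 leaving out 1). In TG+MI against TG they were 2484, and 948 without scaling, 1338 without the filter and 161 with slide as a block (879 to 3284). In TG against WT they were 743, and 1198 without scaling (1139 of them higher), 284 without the filter, 463 with slide as a block and 436 with the replicate block (204 to 1273). In TG+MI against WT+MI they were 2802, and 1121 without scaling, 24 without the filter and 0 with slide as a block, where 2247 had an unadjusted p under 0.05 (5 to 4458). In the interaction they were 1823, and 430 without scaling, 21 without the filter and 3 with slide as a block (59 to 3256). The replicate numbers share only a number: 2 of 12 arrays correlated best with an array of their own number. The cause of these shifts was not tested. Probes near background limit these values: 3 of the 19 probes were not tested and 10 were well above background on all 12 arrays.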
